A study of Mus musculus with 6 samples.

Results

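The colony-stimulating factors and their receptors are the secreted proteins, and the surface receptors that bind them, on which macrophages and granulocytes depend for survival, growth and maturation. The set held 9 genes, chosen by gene symbol with earlier results of these data known, of 56691 genes in the deposited table. The receptors were Csf1r, Csf2ra, Csf2rb, Csf2rb2 and Csf3r, and the ligands were Csf1, Il34, Csf2 and Csf3. RNA was sequenced from mouse bone marrow-derived macrophages that had been induced with M-CSF, the protein made from Csf1, and sorted after culture with the mEC25 cancer cell line. In 3 libraries the macrophages and the cancer cells had touched (contact), and in 3 libraries they had been kept apart in a transwell (transwell). M-CSF induction was thus common to both groups. The labels give no strain, age, culture time or M-CSF dose, do not say how mEC25 cells were removed at the sort, and do not tie replicates to cultures or animals. Every p-value therefore reflects variation among these 6 libraries, part or all of which may be technical.

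CSF1R is the receptor tyrosine kinase for CSF1 and for IL-34, which bind the same receptor, and signalling through it keeps macrophages of the bone marrow lineage alive in culture. GM-CSF, the product of Csf2, binds an alpha chain encoded by Csf2ra, which then pairs with a beta chain that carries the signal through the kinase JAK2 and the transcription factor STAT5. Mice have 2 such beta chain genes, Csf2rb, whose product is shared by the receptors for GM-CSF, interleukin 3 and interleukin 5, and Csf2rb2, whose product serves interleukin 3. G-CSF, the product of Csf3, acts through the receptor encoded by Csf3r and is best known for driving neutrophil production.

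The libraries held 18173192 to 22563835 counts. Macrophage markers were abundant in both groups, with a summed level of 14638 to 16517 FPKM (reads per exon length and library total, as deposited) in contact and 16105 to 17153 FPKM in transwell libraries over 12 genes. Most of that sum was Lyz2, at 11412 to 13076 FPKM in contact and 12817 to 13785 FPKM in transwell libraries. Of the 12, 5 were higher and 5 lower in contact libraries, beside 21.4% and 16.1% of all tested genes. Their log2 changes ran from -1.91 (Fcgr1) and -1.20 (Adgre1) to 1.49 (Cd14) and 1.54 (Cx3cr1). Summed epithelial markers stood at 959.2 to 1692 FPKM in contact and 5.15 to 5.67 FPKM in transwell libraries, and 21 of 22 tested were higher in contact. The keratin gene Krt5 stood at 281.1 to 511.2 FPKM in contact and 0.07 to 0.14 FPKM in transwell libraries, Krt14 at 222.4 to 377 and 0.13 to 0.25 FPKM, and the surface gene Epcam at 5.32 to 10.2 and 0 to 0.03 FPKM. Contact replicate 2 held the highest epithelial sum. Since these are bulk samples, fewer cells of a type and less RNA per cell cannot be told apart.

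Of the 9 genes, 7 passed the filter on low counts and were tested, and Csf2 and Il34 did not pass it. Csf3r, Csf1r and Csf1 were higher in contact libraries, Csf2ra was lower, and Csf2rb, Csf2rb2 and Csf3 did not pass the threshold in edgeR's quasi-likelihood test (Benjamini-Hochberg adjusted p under 0.05 over 14113 genes). These 4 of 7 calls stand beside a background in which 37.5% of all tested genes were called, 21.4% higher and 16.1% lower. The 7 tested genes had FPKM values that did not overlap between the groups, as did 51.2% of all tested genes (35.8% with contact higher and 15.3% with contact lower). FPKM are not TMM-scaled, and the TMM factors were 1.04 to 1.05 in contact and 0.95 to 0.97 in transwell libraries. The narrow gaps of Csf2rb, Csf2rb2 and Csf3 thus need not remain after that scaling. The median log2 change of the 7 tested genes, contact minus transwell, was 0.28, and that of all tested genes was 0.03.

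**Figure D1:**
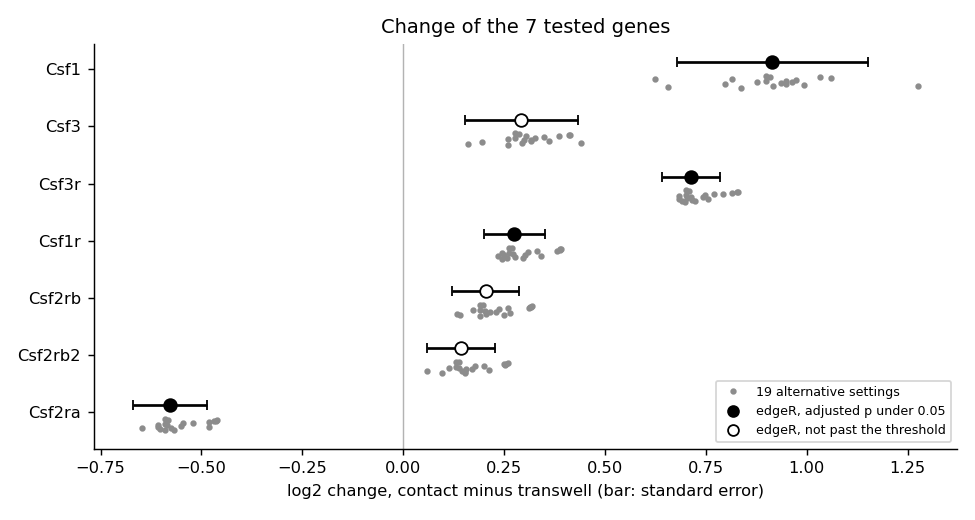
Log2 change (contact minus transwell) of the 7 tested genes, with the edgeR estimate and its standard error in black (filled where the adjusted p was under 0.05) and the 19 alternative settings in grey. Csf2ra lies below 0 and the other 6 genes above 0 under every setting shown, with Csf1 spread most widely, from 0.62 to 1.28.

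The 4 called genes include 3 whose upstream sequence is held in the RefSeq promoter table, and these are shown because they moved in different directions. Of the 9 genes, 5 had a window there. Each sequence gives the 250 bases before the RefSeq start site on GRCm38.p6, 5′ to 3′ on the gene's strand, with matches to the searched motifs in capitals. The Csf1 window lies at chr3:107760470-107760719 (minus strand), that of Csf3r at chr4:126024409-126024658 (plus strand) and that of Csf2ra at chr19:61228419-61228668 (minus strand).
Csf1: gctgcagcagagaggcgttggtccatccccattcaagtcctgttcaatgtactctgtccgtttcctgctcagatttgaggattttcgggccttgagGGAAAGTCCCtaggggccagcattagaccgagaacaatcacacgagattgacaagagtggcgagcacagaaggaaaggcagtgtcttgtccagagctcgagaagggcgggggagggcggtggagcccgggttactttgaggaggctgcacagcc
Csf3r: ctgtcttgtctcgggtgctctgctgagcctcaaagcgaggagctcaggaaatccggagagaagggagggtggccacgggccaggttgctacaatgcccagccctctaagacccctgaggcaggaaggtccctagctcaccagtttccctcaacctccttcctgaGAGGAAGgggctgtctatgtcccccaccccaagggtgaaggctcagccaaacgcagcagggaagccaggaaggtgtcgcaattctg
Csf2ra: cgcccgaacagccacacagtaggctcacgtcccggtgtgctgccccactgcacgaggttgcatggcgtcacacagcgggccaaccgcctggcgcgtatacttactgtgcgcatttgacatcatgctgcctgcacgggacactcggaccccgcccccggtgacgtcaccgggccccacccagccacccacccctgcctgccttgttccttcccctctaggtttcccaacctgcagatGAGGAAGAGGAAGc

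Both strands were searched for the kB motif bound by NF-kB, TGANTCA (AP-1), TTCNNNGAA (STAT) and GAGGAAG (PU.1, the lineage factor of macrophages). The Csf1 window held 1 kB match, which begins 154 bases before the start site, and 0.98% of all 32851 promoter windows of this length held one. The Csf3r window held 1 PU.1 match, beginning 86 bases before the start site, and the Csf2ra window held 2, beginning 14 and 8 bases before it and overlapping by 1 base. A PU.1 match was found in 10.6% of all windows. No AP-1 or STAT match, which 6.75% and 7.02% of all windows held, was found in these 3 windows. GENCODE M21 places the start of Csf3r at 126024550, inside its window and before the PU.1 match. It places the start of Csf2ra at 61228429, inside its window and within the stretch of its PU.1 matches. These matches describe letters and show no binding.

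Csf1r (ENSMUSG00000024621, chromosome 18, 61100598 to 61132149 on GRCm38, plus strand) was by far the most abundant of the 9 transcripts. It stood at 384.3, 342.4 and 391.1 FPKM in contact replicates 1 to 3 and at 289.1, 290 and 273.6 FPKM in transwell replicates 1 to 3. Every contact library was above every transwell library, and the contact libraries were the more spread. The gene ranked 97 of 14113 tested genes by mean FPKM in contact and 139 in transwell libraries. The log2 change was 0.28 ± 0.08 (SE), a 1.21-fold difference (edgeR adjusted p = 0.0173), with 3 of 3 contact libraries higher. The call ended without contact replicate 1 (log2 change 0.25, adjusted p = 0.0788) or 3 (0.24, 0.0571), or without transwell replicate 2 (0.26, 0.0763) or 3 (0.24, 0.0985). Hmgxb3 on the other strand overlaps Csf1r by 873 bases but held 1772 counts in contact and 1373 in transwell libraries, where Csf1r held 141542 and 91299.

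Csf3r (ENSMUSG00000028859, chromosome 4, 126024550 to 126044440, plus strand) showed the receptor change with the smallest adjusted p. It stood at 74.3, 70.3 and 76.4 FPKM in contact replicates 1 to 3 and at 39.7, 43.8 and 40.9 FPKM in transwell replicates 1 to 3. The groups lay far apart relative to their spread, with the lowest contact library well above the highest transwell library. The log2 change was 0.71 ± 0.07 (SE), a 1.64-fold difference (edgeR adjusted p = 4.8e-05), and the call held under all 19 alternatives, with log2 changes of 0.68 to 0.83.

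G-CSF receptors are carried by neutrophils and their precursors as well as by macrophages, so neutrophil markers are given beside Csf3r. Of 12 tested neutrophil markers, 5 were higher in contact libraries and 1 was lower, beside 21.4% and 16.1% of all tested genes. The granule protein genes Mpo (log2 change 2.61), Elane (2.78) and Prtn3 (1.20), the receptor gene Cxcr2 (2.29) and Retnlg (2.90) were higher, and Mmp8 (-1.69) was lower. Mpo, Elane and Retnlg ranked the contact libraries as epithelial markers did. The calprotectin gene S100a8 stood at 304.4, 252.9 and 229.1 FPKM in contact and at 412.2, 222.9 and 206.7 FPKM in transwell libraries (adjusted p = 0.517), and the defining neutrophil surface gene Ly6g at 0 to 0.2 FPKM in contact and 0 to 0.17 FPKM in transwell libraries. Summed neutrophil markers ranged from 866.6 to 1233 FPKM in contact and from 735.2 to 1382 FPKM in transwell libraries, with transwell replicate 1 highest. The calprotectin genes S100a8 and S100a9, neither of them called, held most of that sum. Csf3r was lowest in transwell replicate 1, and the part of the neutrophil markers in the Csf3r difference was not tested.

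Csf2ra (ENSMUSG00000059326, chromosome 19, 61223957 to 61228429, minus strand), the GM-CSF-binding alpha chain, was the member that was lower in contact libraries. It stood at 75.2, 63.3 and 78.8 FPKM in contact replicates 1 to 3 and at 95.2, 102.4 and 101.8 FPKM in transwell replicates 1 to 3. Every contact library was below every transwell library, and contact replicate 2 was the lowest. The log2 change was -0.58 ± 0.09 (SE) (edgeR adjusted p = 8.9e-04), lower in 3 of 3 contact libraries, and it lay between -0.65 and -0.46 under the 19 alternatives, each of which kept the call.

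The signalling beta chains did not follow the alpha chain. Csf2rb (ENSMUSG00000071713, chromosome 15, 78325752 to 78353847, plus strand) stood at 92.6, 87.5 and 103 FPKM in contact and at 79.5, 72.5 and 74.9 FPKM in transwell replicates 1 to 3. Its log2 change was 0.20 ± 0.08 (SE) and missed the threshold (edgeR adjusted p = 0.0811), although 6 alternatives called it higher. Csf2rb2 (ENSMUSG00000071714, chromosome 15, 78282507 to 78305721, minus strand) stood at 68.5, 63.9 and 77.6 FPKM in contact and at 58.5, 57.2 and 59.8 FPKM in transwell replicates 1 to 3. Its log2 change was 0.14 ± 0.08 (SE; edgeR adjusted p = 0.220), and 4 alternatives called it higher, while without contact replicate 3 it was 0.06 (adjusted p = 0.616). For both genes each contact FPKM was above each transwell FPKM by a small margin, before TMM scaling.

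Csf2rb and Csf2rb2 are neighbouring near-copies, so reads that fit both may have been divided between them, and how they were counted is not given here. Their longest GENCODE M21 coding sequences, 2688 and 2634 bases without the stop codon, were 95.2% identical over 2628 aligned bases. Of all stretches of 50 bases in the whole Csf2rb transcript, 18.9% occurred unchanged in the Csf2rb2 transcript, and of those of 150 bases 3.58% did. The ungapped stretch of 150 coding bases with the most differences, 25 of them, is shown because reads from it can be assigned. It runs from coding base 300 to 449 in Csf2rb and from 303 to 452 in Csf2rb2, counted from the start codon, and capitals mark the bases that differ.
Csf2rb: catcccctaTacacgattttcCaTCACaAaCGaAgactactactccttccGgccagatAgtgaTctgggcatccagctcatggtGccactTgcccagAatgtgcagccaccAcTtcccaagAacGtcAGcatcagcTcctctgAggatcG
Csf2rb2: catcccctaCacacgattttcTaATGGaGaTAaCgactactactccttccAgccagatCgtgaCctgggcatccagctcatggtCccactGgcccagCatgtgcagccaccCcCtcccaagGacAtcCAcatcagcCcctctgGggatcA

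Within a library Csf2rb2 took a nearly constant share of the counts of the pair. The share was 32.5%, 32.2% and 32.9% in contact replicates 1 to 3 and 32.4%, 34% and 34.2% in transwell replicates 1 to 3. The groups overlapped and the means differed by -0.97 percentage points (two-sided exact permutation p = 0.3). With 3 against 3 libraries the smallest p that test allows is 0.1.

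**Figure D2:**
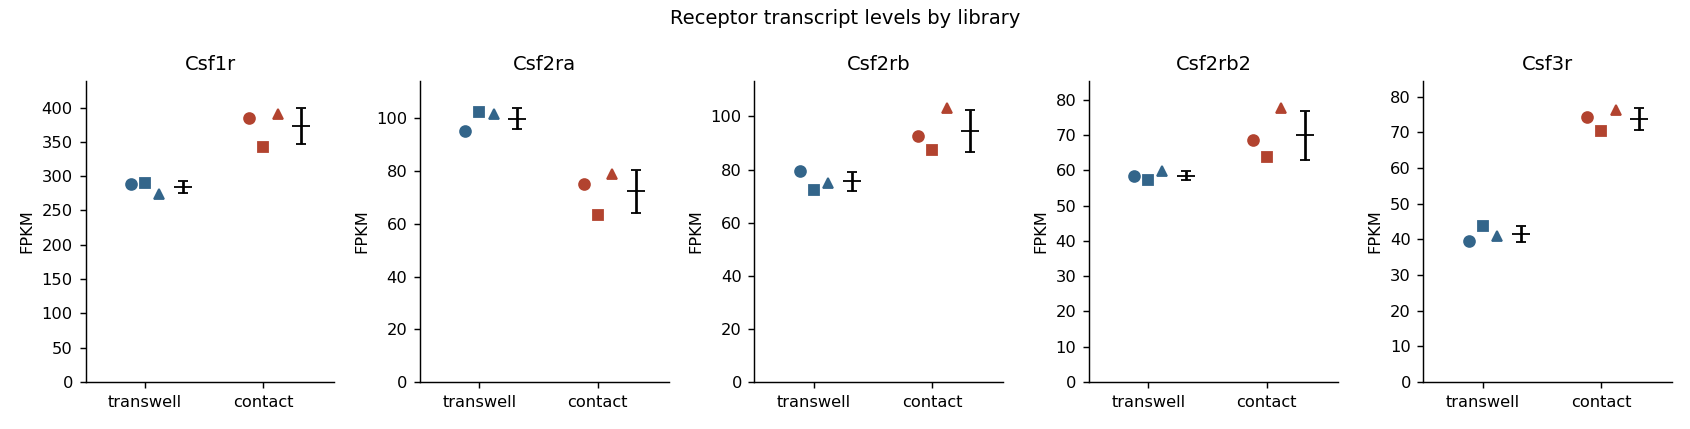
FPKM of the 5 receptor genes in each library (circle, square and triangle for replicates 1, 2 and 3), with the mean and SD of each group of 3 beside the points. Contact points lie above transwell points for Csf1r, Csf2rb, Csf2rb2 and Csf3r and below them for Csf2ra.

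The order of receptor levels per exon length thus differed between the groups. In transwell libraries it ran Csf1r, Csf2ra, Csf2rb, Csf2rb2 and Csf3r, and no neighbouring pair overlapped over the 3 libraries. In contact libraries Csf1r (373 ± 26.3 FPKM, SD, n = 3) and Csf2rb (94.4 ± 7.93 FPKM) led, and Csf3r (73.6 ± 3.08 FPKM), Csf2ra (72.4 ± 8.10 FPKM) and Csf2rb2 (70 ± 6.98 FPKM) lay within each other's spread. Of the summed FPKM of the 5 receptors, Csf1r took 54.6 ± 0.752% in contact and 50.8 ± 0.975% in transwell libraries. Csf3r took 10.8 ± 0.362% and 7.41 ± 0.345%, Csf2ra 10.6 ± 0.427% and 17.8 ± 0.799%, Csf2rb 13.8 ± 0.438% and 13.5 ± 0.675%, and Csf2rb2 10.2 ± 0.413% and 10.5 ± 0.370%. These shares do not depend on how libraries are scaled.

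The balance between the GM-CSF alpha chain and the M-CSF receptor was compared in the same way. Csf2ra made up 16.4%, 15.6% and 16.8% of the FPKM of Csf2ra and Csf1r in contact replicates 1 to 3, against 24.8%, 26.1% and 27.1% in transwell replicates 1 to 3. The groups were far apart, with a difference of -9.76 percentage points and the smallest p the design allows (two-sided exact permutation p = 0.1). Csf2ra was lower and Csf1r higher in every contact library, so the shares had to separate. This p thus adds nothing to the results of each gene. Taken from counts in place of FPKM, the difference was -6.08 percentage points.

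Among the ligands, Csf1 (ENSMUSG00000014599, chromosome 3, 107741048 to 107760469, minus strand), which encodes M-CSF itself, was higher in contact libraries but low in both groups. It stood at 5.31, 4.45 and 4.08 FPKM in contact replicates 1 to 3 and at 3.23, 1.5 and 2.03 FPKM in transwell replicates 1 to 3. The groups did not overlap, but the spread within the transwell group was wide, with replicate 1 nearest to the contact libraries. The log2 change was 0.91 ± 0.24 (SE), a 1.89-fold difference (edgeR adjusted p = 0.0132), higher in 3 of 3 contact libraries. The call ended without contact replicate 1 (0.80, adjusted p = 0.0549) or transwell replicate 3 (0.84, adjusted p = 0.0621), and the change was 1.28 without transwell replicate 1 and 0.66 without transwell replicate 2.

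Because ligand transcripts could have come from other cells in the culture, Csf1 was set beside the marker lists. The transwell level of Csf1, where epithelial markers were near 0, was 665 counts over 3 libraries, and the contact libraries held 1602. In contact libraries Csf1 was highest in replicate 1, while summed epithelial markers were highest in replicate 2. Summed fibroblast markers ran 25.6, 17.5 and 11.1 FPKM in contact and 8.39, 3.91 and 3.72 FPKM in transwell replicates 1 to 3. Of 8 tested, 5 were higher in contact and none lower, beside 21.4% and 16.1% of all tested genes. Both the fibroblast sum and Csf1 were highest in replicate 1 of each group, and in contact libraries they ranked the 3 replicates alike. Summed neutrophil markers ranked the contact and transwell replicates as Csf1 did. The calprotectin genes S100a8 and S100a9, neither of them called, held most of that sum. The called neutrophil markers Mpo, Elane and Retnlg ranked the contact libraries in the epithelial order. The part of these markers in the Csf1 difference was not tested. No library of mEC25 cells alone was available, so Csf1 RNA from macrophages and from mEC25 cells cannot be told apart in contact libraries.

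Csf3 (ENSMUSG00000038067, chromosome 11, 98701263 to 98703629, plus strand), the gene of G-CSF, was the most abundant ligand transcript. It stood at 14.1, 15.3 and 17.7 FPKM in contact replicates 1 to 3 and at 14, 10.1 and 11.4 FPKM in transwell replicates 1 to 3. Contact replicate 1 and transwell replicate 1 nearly met in these values, which are not TMM-scaled. The log2 change of 0.29 ± 0.14 (SE) did not pass the threshold (edgeR adjusted p = 0.132), and 4 alternatives called it higher, among them the fit without transwell replicate 1 (0.44, adjusted p = 0.0260). Transwell libraries, with epithelial markers near 0, held 931 Csf3 counts, so the transcript was also present in libraries with almost no epithelial marker RNA.

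Csf2 (ENSMUSG00000018916, chromosome 11, 54247271 to 54249667, minus strand), the gene of GM-CSF, was close to the detection limit. It held 10, 3 and 11 counts in contact replicates 1 to 3 and 0, 3 and 2 counts in transwell replicates 1 to 3. The groups overlapped, since contact replicate 2 and transwell replicate 2 had equal counts. Pooled over libraries the 24 contact and 5 transwell counts gave a ratio of 4.07 per total count, with an exact 95% interval of 1.52 to 13.7 that covers counting error only. The antisense gene Gm12223, which overlaps it, held 0 counts in both groups.

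Il34 (ENSMUSG00000031750, chromosome 8, 110741829 to 110805924, minus strand), the gene of the other CSF1R ligand, held 7, 4 and 0 counts in contact replicates 1 to 3 and 0, 1 and 0 counts in transwell replicates 1 to 3. It was seen in 2 contact libraries and in 1 transwell library, and contact replicate 3, with none, overlapped the transwell group. The ratio of 11 to 1 counts was 9.32 per total count, with an exact 95% interval of 1.35 to 401.1. When no filter was applied, neither gene passed the threshold in edgeR (Csf2 adjusted p = 0.141, Il34 adjusted p = 0.211). The antisense gene Gm15894 overlaps Il34 by 3979 bases and held 4 counts in contact and 0 in transwell libraries. The strand setting is not given, so antisense reads within the Il34 counts cannot be told apart.

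**Figure D3:**
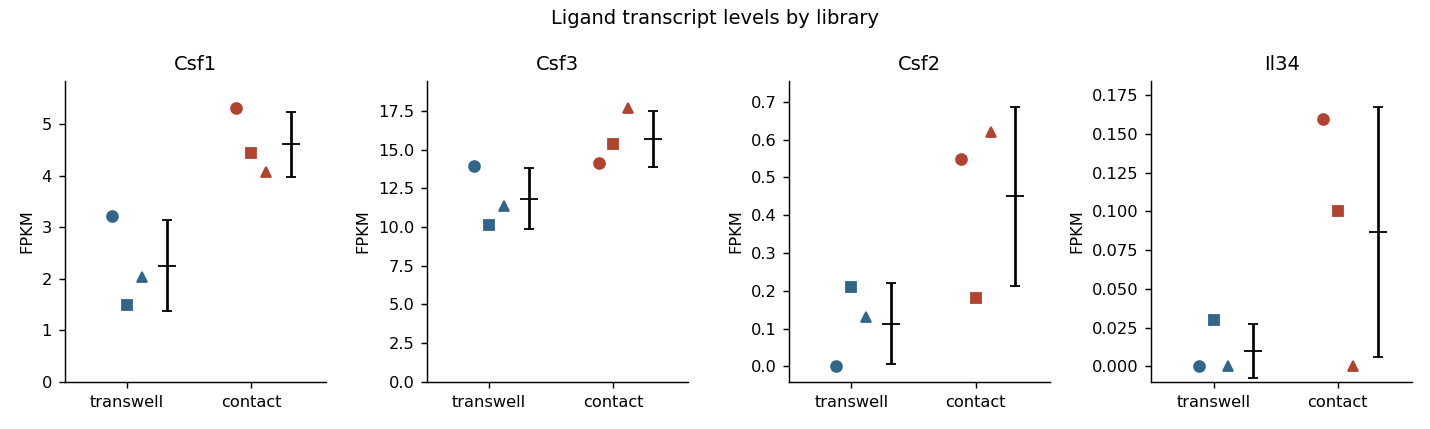
FPKM of the 4 ligand genes in each library (circle, square and triangle for replicates 1, 2 and 3), with the mean and SD of each group of 3 beside the points and a separate vertical scale per gene. Csf3 and Csf1 are present in all 6 libraries, and Csf2 and Il34 stay under 1 FPKM with groups that overlap.

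None of the 9 genes ranked the contact libraries as epithelial markers did. Relative to the contact mean, summed epithelial markers stood at 0.891, 1.35 and 0.763 in contact replicates 1 to 3. All 5 receptors were lowest in contact replicate 2, where epithelial markers were highest, at 0.874 (Csf2ra) to 0.955 (Csf3r) of their contact mean, and highest in contact replicate 3. Of all tested genes 27.2%, and of the genes called higher in contact 14%, were lowest in contact replicate 2. Csf1 stood at 1.15, 0.965 and 0.884 of its contact mean and Csf3 at 0.899, 0.976 and 1.13. Csf2 was also lowest in contact replicate 2 (0.4 of its mean, from 3 counts). The epithelial order ran from contact replicate 2 through 1 to 3. Among all tested genes 25% followed it, as did 43.6% of the 3016 genes called higher in contact. Of the 21 epithelial markers called higher, 18 did. With 3 libraries such an order is a description and cannot tell which cells a transcript came from.

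**Figure D4:**
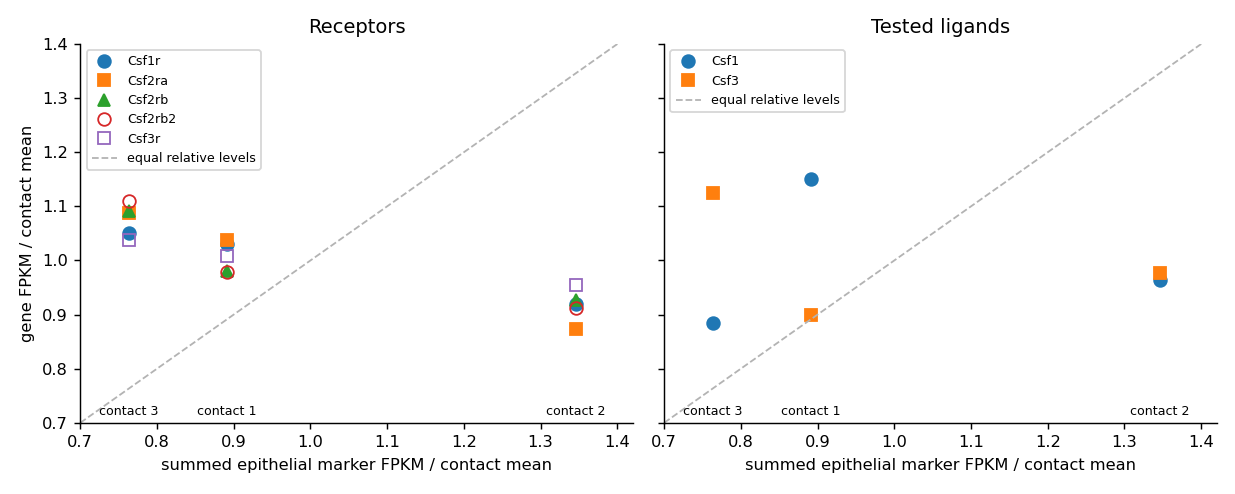
Level of each tested gene relative to its contact mean against the summed epithelial marker level relative to its own contact mean, in the 3 contact libraries (left, receptors; right, tested ligands). The dashed line is where a gene would vary in proportion to the markers, and the 5 receptors run against it, lowest in contact replicate 2.

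Pathway lists, chosen with earlier results of these data known, were read against all tested genes, of which 21.4% were called higher and 16.1% lower. Of 21 listed genes that carry the CSF1R signal, all tested, 3 were higher and 8 lower in contact libraries. Their median log2 change was -0.13, beside 0.03 for all tested genes. Over the 19 alternatives 2 to 4 were higher and 4 to 8 lower, with a median of -0.16 to -0.01. The SRC-family kinase genes Src (14.7 ± 1.71 against 6.42 ± 0.101 FPKM, log2 change 1.08 ± 0.10) and Fgr (0.86 ± 0.10) were higher. Src was highest in contact replicate 2, at 16.7 FPKM. Gab3, an adaptor of the GAB family (-1.02 ± 0.22), and Pik3ap1, an adaptor for PI3-kinase (-0.73 ± 0.09), were lower. Tyrobp, the adaptor DAP12, stood at 829 ± 17.5 against 856 ± 50.9 FPKM (adjusted p = 0.108).

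Of 14 genes that restrain the receptor or its signal, 5 were higher and 3 were lower. Over the 19 alternatives 2 to 5 were higher and 3 lower. The median was 0.06, which was -0.02 when genes with a mean FPKM under 1 were left out. Spry1, an inhibitor of receptor kinase signalling, was higher (3.41 ± 0.38) at 0.95 ± 0.291 against 0.0767 ± 0.0115 FPKM. It was highest in contact replicate 2, as epithelial markers were (0.67, 1.25 and 0.93 FPKM in contact replicates 1 to 3). Dusp6, a phosphatase that acts on ERK (0.54 ± 0.08), was higher and followed the epithelial order over the contact libraries, and the phosphatase gene Ubash3b (-0.96 ± 0.10) and the adaptor gene Dok1 (-0.49 ± 0.09) were lower. Adam17, whose product cleaves CSF1R from the surface, was higher by 0.28 (adjusted p = 0.0452).

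Of 15 transcription factor genes known to act on Csf1r or in macrophages that express it, 7 were higher and 3 lower, beside 21.4% and 16.1% of all tested genes, with a median of 0.28. Spi1, the gene of PU.1, stood at 159 ± 6.82 against 144 ± 10.1 FPKM (0.03 ± 0.08, adjusted p = 0.820), and Cebpa at 51.3 ± 1.57 against 46.4 ± 1.70 FPKM (0.03 ± 0.07, adjusted p = 0.786). Klf4 (2.69 ± 0.20), Ets1 (1.84 ± 0.11), Myb (1.11 ± 0.21) and Cebpb (0.55 ± 0.10) were higher. Klf4, Ets1 and Myb ranked the contact libraries as epithelial markers did, and Cebpb did not.

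Genes that CSF1 is known to induce were higher in 9 of 12 cases and lower in none, beside 21.4% and 16.1% of all tested genes, with a median of 0.39, and the count of higher genes lay between 6 and 11 under the 19 alternatives. The cyclin genes Ccnd1 (3.35 ± 0.23) and Ccnd2 (3.14 ± 0.21) led, followed by the early growth response gene Egr1 (25.2 ± 2.34 against 6.50 ± 0.735 FPKM, 1.84 ± 0.11) and Ier3 (0.90 ± 0.10). Ccnd1, Ccnd2 and Mcl1 followed the epithelial order over the contact libraries, and the other 6 higher genes did not. Mcl1 varied little (355.4, 356.7 and 345.4 FPKM in contact replicates 1 to 3). Of those 6, Myc was also highest in contact replicate 2 (6.3, 8.41 and 7.73 FPKM). Many stimuli other than CSF1 induce these genes.

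Of 9 listed genes that carry the GM-CSF and G-CSF signal, namely the JAK and STAT genes with Lyn, Ptpn11 and Ywhaz, none was higher and 2 were lower, Stat3 (-0.36 ± 0.06) and Tyk2 (-0.26 ± 0.08), and the median was -0.10. It was 0.01 with library totals alone and in limma on log2(FPKM + 1) and log2(FPKM + 0.1), where 2 were higher and 1 lower, and over the 19 alternatives 0 to 2 were higher and 1 to 3 lower. Jak2 stood at 17.8 ± 3.42 against 13.6 ± 3.02 FPKM (adjusted p = 0.243), and Stat5a at 3.23 ± 0.151 against 3.69 ± 0.480 FPKM (adjusted p = 0.0546).

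Known STAT5 targets and GM-CSF response genes split evenly. Of 13, 12 were tested, 3 were higher and 3 lower, and the median of -0.04 changed sign under 6 of 19 alternatives. The feedback inhibitor genes Socs2 (1.79 ± 0.25) and Cish (1.39 ± 0.20) were higher from low levels, with Cish at 1.11 ± 0.153 against 0.393 ± 0.0603 FPKM. Socs2 was highest in contact replicate 2 (0.33, 0.39 and 0.33 FPKM in contact replicates 1 to 3). The cytokine gene Osm was higher (1.14 ± 0.13), and the kinase gene Pim2 was lower, at 5.93 ± 0.503 against 16.2 ± 2.03 FPKM (-1.57 ± 0.12). Ccl17 was too low to be tested.

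**Figure D5:**
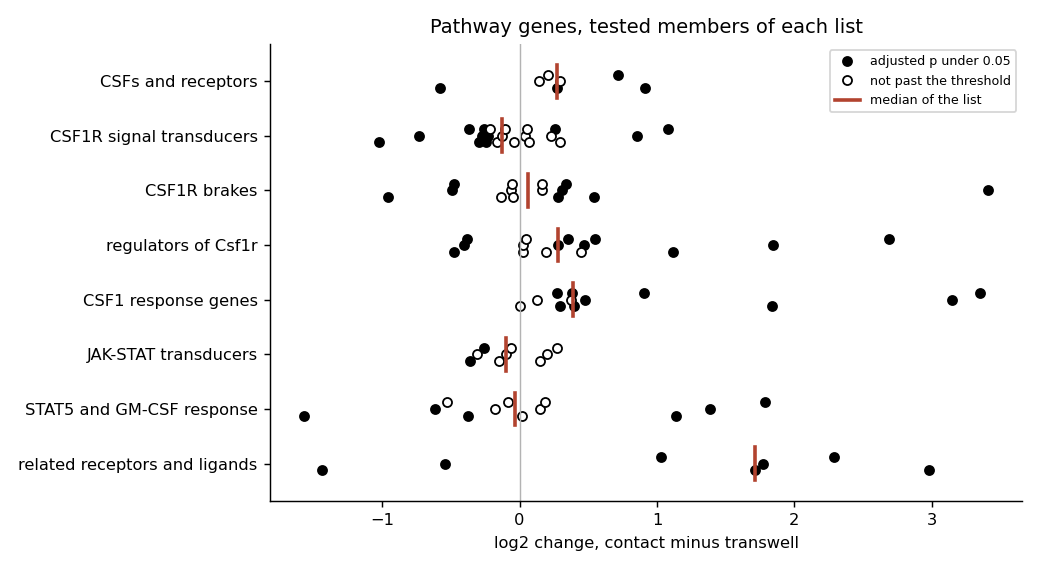
Log2 change (contact minus transwell) of every tested gene in the 9-gene set and in 7 pathway lists, with filled points for an adjusted p under 0.05 and a red bar at the list median. The CSF1 response genes lie at or above 0, and the other lists hold called genes on both sides of 0 except the JAK-STAT transducers, whose called genes lie below it.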

How the data were processed

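For each library the authors deposited a raw count and an FPKM value per gene, per the file headers. GRCm38 and mm10 are named in the submitters' processing notes. No aligner, counter, annotation or strand setting is given in the sources used here. Of FPKM values with a count above 100, 99.93% matched, to within 1%, the count divided by the table's exonic length and the library total. Gene positions in the table differed from GENCODE M21 (GRCm38) for all 9 genes, so those of GENCODE M21 are printed, matched on gene ID.

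After filterByExpr at a minimum count of 10 left 14113 genes, TMM factors were set and the groups were tested with edgeR's two-sided quasi-likelihood test, calling genes at a Benjamini-Hochberg adjusted p under 0.05 (edgeR 4.0.16, limma 3.58.1, DESeq2 1.42.0, R 4.3.3). Each standard error is the size of the change divided by the root of its F statistic. FPKM are not TMM-scaled: with library totals alone the median gene changed by 0.14 (log2) and with TMM by 0.03, so FPKM ratios lie above the fitted changes. Replicates differed by a chi-square of 6.376 to 25.18 per degree of freedom, so none agreed within sampling noise. The depths of 18173192 to 22563835 counts limit Csf2 and Il34, whose intervals cover counting error only.

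The 9 genes, the 7 pathway lists and 6 marker lists (epithelial, macrophage, neutrophil, fibroblast, lymphoid, mast cell) were chosen with earlier results of these data known. Named are all 9 genes, up to 4 called genes of each pathway list by size of change, the partners Il3ra, Jak2, Stat5a, Cish, Spi1 and Cebpa, and set markers. Tyrobp, Adam17, Mcl1, Flt3l and the neutrophil and macrophage markers were named after their values were seen. The test was tried on simulated data before use. Promoter windows come from RefSeq (GRCm38.p6), and coding sequences were aligned with Biopython 1.88. Figures were drawn with matplotlib 3.10.9. Alternatives were other scalings and filters, DESeq2, and limma on log2(FPKM + 1), also after quantile normalization, and on log2(FPKM + 0.1). The others were a fit without epithelial markers and mitochondrial genes, a replicate block and each library left out.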

Additional observations from a re-analysis of the deposited data

How the results depend on the processing

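None of the 7 tested changes and neither share changed direction under any alternative tried, while the medians of some pathway lists, given with each list, changed sign. Csf2ra and Csf3r kept their calls under all 19. The Csf1r change ran from 0.24 to 0.34 over the fits without 1 library, of which 4 ended the call, and that of Csf1 from 0.66 to 1.28, of which 2 ended it. Over the same fits Csf2rb ran from 0.13 to 0.26, Csf2rb2 from 0.06 to 0.21 and Csf3 from 0.16 to 0.44, and 1 of them called Csf3. Csf2rb passed the threshold with library totals alone (0.32), with a mean FPKM of at least 1 over all samples (0.24) or in transwell samples (0.26), and in limma on log2(FPKM + 1) (0.31), on log2(FPKM + 0.1) (0.32) and after quantile normalization (0.31). Csf2rb2 passed it with library totals alone (0.26), in limma on log2(FPKM + 1) (0.25), on log2(FPKM + 0.1) (0.25) and after quantile normalization (0.25). Csf3 passed it with library totals alone (0.41) and in limma on log2(FPKM + 1) (0.39) and log2(FPKM + 0.1) (0.41). Without contact replicate 1 or without transwell replicate 3, 1 of the 9 genes was called higher, where the full data called 3, and with library totals alone 6 were.

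The count of genes called higher was 3016 and was 1864 when genes under a transwell mean of 1 FPKM were left out. The count called lower was 2270, and it was 1450 with library totals alone, 1422 in limma on log2(FPKM + 1), 1442 on log2(FPKM + 0.1) and 3418 after quantile normalization. The difference in the share of Csf2ra in Csf2ra and Csf1r was -9.76 percentage points in FPKM and -6.08 in counts, since counts weight each gene by its length. With the replicate number as a block, the changes were 0.27 for Csf1r, -0.58 for Csf2ra, 0.71 for Csf3r and 0.96 for Csf1, no call of the 9 genes changed, and 5124 genes were called where 5286 were without it. Same-numbered libraries did not deviate together (correlations of -0.08, -0.45 and 0.06), so the numbers were not taken as pairs.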

Other observations

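Receptors and ligands related to the set also differed between the groups. Il3ra, the interleukin 3 receptor alpha chain that shares the beta chain Csf2rb with Csf2ra, stood at 18, 17.5 and 15.1 FPKM in contact and at 23.5, 21.8 and 22.7 FPKM in transwell replicates 1 to 3 (log2 change -0.54 ± 0.09, edgeR adjusted p = 0.00115). The alpha chains for GM-CSF and interleukin 3 were thus both lower, while neither beta chain passed the threshold. The interleukin 5 receptor gene Il5ra and the ligand gene Il3 were listed at 0 in all 6 libraries. Of 12 related genes, 7 were tested, 5 of them higher and 2 lower, beside 21.4% and 16.1% of all tested genes. Sdc1, the gene of syndecan-1, a surface proteoglycan that can bind IL-34, stood at 114 ± 4.51 against 30.6 ± 3.47 FPKM (1.77 ± 0.09), and Ptprz1, the gene of another reported IL-34 receptor, was higher (2.98 ± 0.57) at no more than 0.15 FPKM, in the epithelial order over the contact libraries. Kitl (2.29 ± 0.24) and Pdgfrb (1.71 ± 0.41) were higher, and Flt3l was lower (-1.44 ± 0.21). Kitl was highest in contact replicate 2 (1.73, 2.64 and 2.18 FPKM in contact replicates 1 to 3). The list's median of 1.71 was -0.49 when genes with a mean transwell FPKM under 1 were left out.

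The tested genes whose log2 CPM most resembled that of Csf1r over the 6 libraries, among 6238 with a mean of at least 5 FPKM, were Pik3c3 (Pearson r = 0.996), Sh2b2 (0.984) and Rnf14 (0.980). Those most like Csf1, the gene with the largest change among the 7 tested, were Fxr2 (0.998), Acaa1a (0.996) and Atox1 (0.993). Their log2 changes were 0.12, 0.15 and 0.27, beside 0.91 for Csf1. Of the genes compared, 25 had an r above 0.95 with Csf1r and 88 with Csf1. The 6 points share library depth and group, so these values are descriptions. Markers of lymphoid cells summed to 4.91 to 6.44 FPKM in contact and 2.39 to 2.93 FPKM in transwell libraries, with Cd4 the 1 marker tested (higher, 1.31), and mast cell markers summed to 0.4 to 1.51 and 0.34 to 0.7 FPKM, with 1 tested and not called.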
